A study of Mus musculus with 12 samples.

Results

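The genes of the insulin, IGF and growth hormone axis were followed in mouse liver after iron sulfate and dexamethasone. The 10 genes Igf1, Igfbp1, Igfbp2, Igfbp4, Igfals, Insr, Irs1, Irs2, Ghr and Pik3r1 were taken by symbol, through their Ensembl identifiers, from a table of 55414 genes, and each symbol matched 1 row. All 10 had enough reads to be tested, among 13857 tested genes. Bulk RNAseq was available for the livers of 12 female wild-type C57BL/6J mice of 8 to 12 weeks. They formed 4 groups of 3 mice, and every mouse received a pair of intraperitoneal injections. NaCl/PBS mice received 0.9% NaCl and then PBS. NaCl/DEX mice received 0.9% NaCl and then 10 mg/kg dexamethasone (DEX), a synthetic glucocorticoid. FeSO4/PBS mice received 300 mg/kg FeSO4, an acute iron overload, and then PBS, and FeSO4/DEX mice received 300 mg/kg FeSO4 and then 10 mg/kg DEX. The second injection followed the first by 6 h, and livers were taken 2 h later, 8 h after the first injection. Feeding state, circulating insulin, growth hormone and IGF-1 were not part of the data used here, so the values below are mRNA levels in whole liver, where fewer cells of a type and less RNA per cell cannot be told apart.

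Growth hormone from the pituitary binds the growth hormone receptor, encoded by Ghr, on hepatocytes and drives transcription of Igf1 through JAK2 and STAT5. Liver-derived IGF-1 circulates bound to IGF binding proteins and to the acid labile subunit, which is encoded by Igfals. Insulin binds its receptor, encoded by Insr, which phosphorylates the docking proteins IRS1 and IRS2, and these recruit PI3-kinase through its regulatory subunit p85-alpha, the product of Pik3r1. AKT downstream of PI3-kinase excludes FOXO transcription factors from the nucleus, and hepatic Igfbp1 and Irs2 are textbook genes that insulin represses in this way. Igfbp1 is also a known glucocorticoid-induced gene.

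On GRCm39 the ligand and carrier genes are Igf1 at chr10:87693642-87772904, Igfbp1 at chr11:7147651-7152546, Igfbp4 at chr11:98932064-98945218, Igfbp2 at chr1:72863606-72891634 and Igfals at chr17:25084971-25100984, all on the plus strand. The receptor and signaling genes are Ghr at chr15:3347235-3613024, Insr at chr8:3172061-3329647, Irs1 at chr1:82210822-82269338, Irs2 at chr8:11034681-11059499 and Pik3r1 at chr13:101817071-101904725, all on the minus strand. Because Igfbp1, Irs1 and Irs2 carried the largest differences among the 10 genes, their promoter windows are shown, as the 300 bases before the start of the canonical transcript (GENCODE vM39 on GRCm39, read on the strand of the gene). The windows are chr11:7147351-7147650 on the plus strand for Igfbp1, chr1:82269339-82269638 on the minus strand for Irs1 and chr8:11059500-11059799 on the minus strand for Irs2. Capitals mark the glucocorticoid receptor hexamer TGTTCT, 1 arm of the palindrome that the receptor dimer binds, in either orientation, the only searched motif found in these windows.
Igfbp1: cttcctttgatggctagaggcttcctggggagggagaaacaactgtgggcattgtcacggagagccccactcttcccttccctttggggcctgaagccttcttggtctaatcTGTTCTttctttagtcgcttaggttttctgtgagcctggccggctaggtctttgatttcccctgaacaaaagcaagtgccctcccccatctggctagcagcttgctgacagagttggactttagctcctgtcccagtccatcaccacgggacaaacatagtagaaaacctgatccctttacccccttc
Irs1: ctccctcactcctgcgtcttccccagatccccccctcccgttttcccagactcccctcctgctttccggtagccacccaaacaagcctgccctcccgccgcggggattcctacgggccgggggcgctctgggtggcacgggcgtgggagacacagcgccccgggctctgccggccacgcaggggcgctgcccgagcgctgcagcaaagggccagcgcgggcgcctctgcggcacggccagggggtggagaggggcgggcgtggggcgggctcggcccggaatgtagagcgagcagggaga
Irs2: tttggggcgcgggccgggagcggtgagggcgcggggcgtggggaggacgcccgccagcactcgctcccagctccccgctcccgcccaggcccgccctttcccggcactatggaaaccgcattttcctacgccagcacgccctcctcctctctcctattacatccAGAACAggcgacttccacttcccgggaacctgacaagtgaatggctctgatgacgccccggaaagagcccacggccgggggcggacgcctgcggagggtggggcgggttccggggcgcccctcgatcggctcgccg
This hexamer lay 188 to 183 bases before the start of Igfbp1 and, on the opposite strand, 136 to 131 bases before the start of Irs2, and the Irs1 window held no match. Both strands were searched for 4 motifs in the same windows of 21770 protein-coding genes. TGTTCT was present in 17.6% of all windows and in those of 5 of the 10 genes, namely Igf1, Igfbp1, Igfbp2, Irs2 and Ghr. The FOXO element TGTTTAC was present in 3.43% of windows, and among the 10 genes in that of Igfals alone, 216 to 210 bases before the start. The STAT element TTCNNNGAA was present in 9.2% of windows and again only in that of Igfals, 32 to 24 bases before the start. The insulin response sequence TGTTTTG was present in 7.88% of windows and in none of the 10. These matches describe letters in a short window. The windows of Irs1 and Irs2 were rich in G and C (73.7% and 70.7%) against a median of 52.3% over all windows and 52.3% for Igfbp1.

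The libraries held 16335651 to 23827340 counts in genes. Hmox1, which encodes the iron-induced heme oxygenase 1, had a mean normalised read count of 563 in NaCl/PBS and of 36551 in FeSO4/PBS, and 38706 in FeSO4/DEX. The glucocorticoid-induced genes Fkbp5 and Tsc22d3 were upregulated in NaCl/DEX against NaCl/PBS (LFC of 2.24 with FDR = 0.00014, and 1.68 with FDR = 2.2e-05). LFC is the log2 fold change and FDR the Benjamini-Hochberg adjusted p of edgeR's quasi-likelihood test over all tested genes, and a gene was called at an FDR of 0.05 or less. In FeSO4/DEX against FeSO4/PBS neither Fkbp5 (LFC -0.19, FDR = 0.92) nor Tsc22d3 (LFC 0.24, FDR = 0.83) was called, so these genes do not check the DEX label in the FeSO4 mice, and Per1 was not called after DEX in either background (FDR = 0.96 and 0.95). Among NaCl/PBS mice, mouse 2 stood apart, with an Fkbp5 count of 3654 against 1341 and 1481. FeSO4/PBS mouse 1 stood apart from the other FeSO4/PBS mice over all genes (chi-square per gene of 81.4 and 64.9, against 16.8 to 33.9 for all other pairs within a group). Hepatocyte markers were present in all libraries, with 7 of 8 matched by symbol, of which 4 were called higher in FeSO4/PBS and 0 lower. Kupffer cell markers were lower in all FeSO4 mice, with all 6 called lower in FeSO4/PBS and summed counts of 3324 to 3929 against 6353 to 7335 in NaCl/PBS. Neutrophil markers were higher, with 5 of 6 called and sums of 775 to 935 against 115 to 299. The part of these cells in the results below was not tested.

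In NaCl/PBS liver, the 10 genes were compared in reads per kilobase of exon, a length-corrected scale. Igfbp4 ranked first with 6577 normalised reads per kb, followed by Igfbp2 with 3318, Igf1 with 1035, Igfbp1 with 966, Ghr with 775 and Igfals with 577. The signaling genes lay lower, with Insr at 228, Pik3r1 at 138, Irs2 at 74.4 and Irs1 at 32.6. In this order Igf1 overlapped Igfbp1 and Igfbp1 overlapped Ghr between mice, and all other neighbours were separate in all 3 mice. In FeSO4/PBS liver Igfbp1 came first with 23594 reads per kb, which placed it 36th by level among 21627 protein-coding genes, against a place of 507 in NaCl/PBS. The place was 119 in NaCl/DEX and 28 in FeSO4/DEX. Irs2 took place 4311 in NaCl/PBS and 7786 after DEX alone. After FeSO4 its place was 2485 without DEX and 1289 with it. Irs1 was the lowest of the 10 in all 4 groups, although in NaCl/DEX its mice overlapped those of Irs2.

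**Figure D1:**
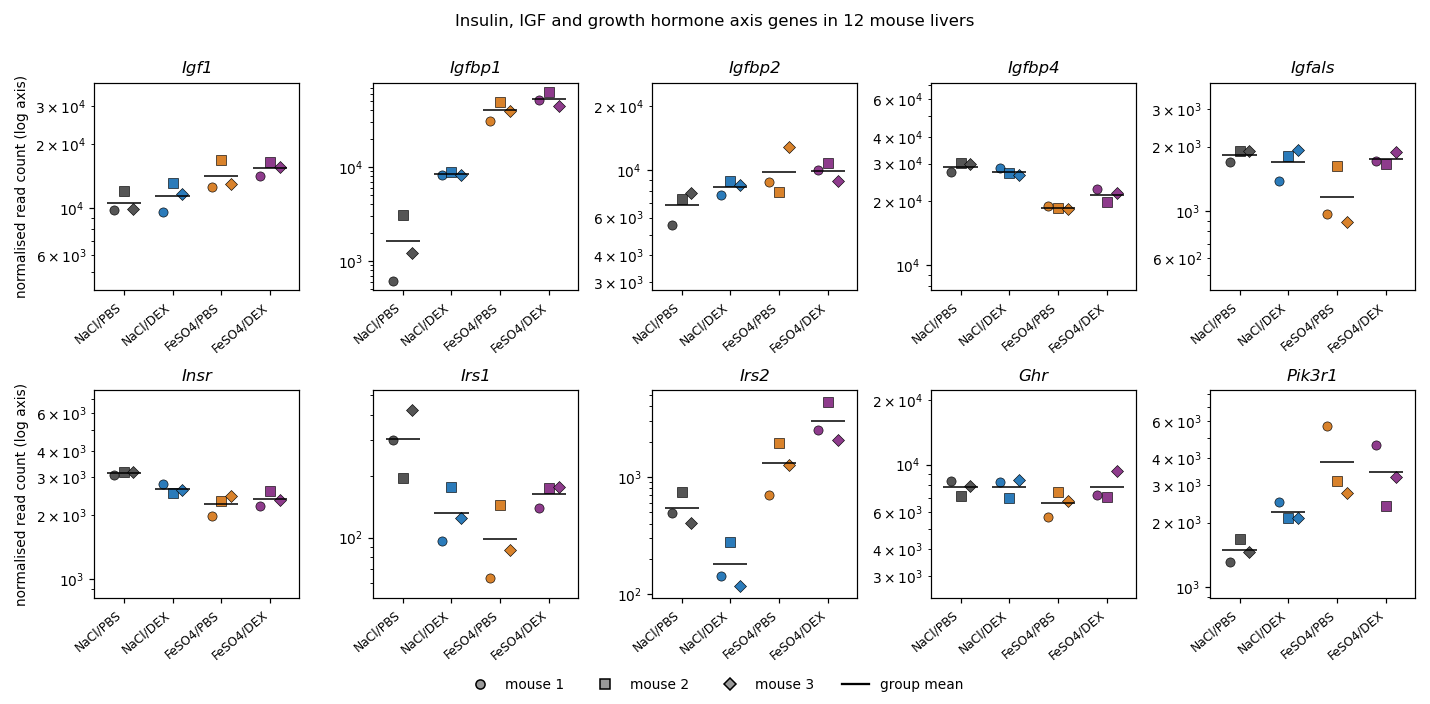
Normalised read count (log axis) of each of the 10 genes in each of the 12 mice, by group, with the mouse number as the symbol and the group mean as a line. Igfbp1 lay between 616 and 3095 in NaCl/PBS and between 30891 and 49694 in FeSO4/PBS, while Irs2 was lowest in NaCl/DEX and highest in FeSO4/DEX.

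The first comparison asked how FeSO4 changed the axis without DEX. In FeSO4/PBS against NaCl/PBS, 9 of the 10 genes were called. Of these, 5 were upregulated (Igfbp1, Pik3r1, Irs2, Igfbp2 and Igf1), beside 27.2% of all tested genes, and 4 were downregulated (Irs1, Igfals, Igfbp4 and Insr), beside 27.3% of all tested genes. With an LFC beyond 1 also required, 3 were higher (Igfbp1, Pik3r1 and Irs2), beside 12.5% of tested genes, and 1 was lower (Irs1), beside 14.7%. Ghr was not called. The median LFC of the 10 genes was 0.09, and that of all tested genes was -0.02. Scaling by library size alone moved the median over all genes to -0.34 and the share of calls that were higher from 49.9% to 28.2%. Under that scaling Igf1 (LFC 0.10, FDR = 0.59) and Igfbp2 (LFC 0.20, FDR = 0.36) were no longer called, and Ghr was called lower (LFC -0.56, FDR = 0.0043), whereas the other 7 called genes kept their call and direction.

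Igfbp1, which encodes the acute, insulin-repressed IGF binding protein of liver, showed the largest difference of the 10. In NaCl/PBS its normalised read count was 616, 3095 and 1216, and the FeSO4/PBS livers reached 30891, 49694 and 39743. The groups were far apart, and NaCl/PBS mouse 2 was the highest of its group by a wide margin, as it was for Fkbp5. The LFC was 4.61 ± 0.46 (SE, FDR = 2.1e-06), a 24.4-fold difference. Without NaCl/PBS mouse 2 the LFC was 5.46 (FDR = 1.3e-07).

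The other binding protein genes moved less and not in 1 direction. Igfbp4, whose product binds IGF-1 and is cleaved by the protease PAPP-A, had counts of 27366, 30140 and 29751 in NaCl/PBS and of 18897, 18615 and 18329 in FeSO4/PBS. The FeSO4/PBS mice were nearly alike and all below the NaCl/PBS mice (LFC -0.64 ± 0.10, FDR = 0.00014). Igfbp2, an abundant binding protein of fetal and adult liver, rose from 5522, 7368 and 7802 to 8792, 7953 and 12842 (LFC 0.52 ± 0.18, FDR = 0.023). The groups were adjacent, with the highest NaCl/PBS mouse just below the lowest FeSO4/PBS mouse, and the call was lost without NaCl/PBS mouse 1 (FDR = 0.11), without FeSO4/PBS mouse 3 (LFC 0.28, FDR = 0.14) and in a model of these 6 libraries alone (FDR = 0.059).

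Igfals, whose product holds IGF-1 and IGFBP-3 in the large circulating complex, and Igf1 itself moved in opposite directions. Igfals fell from 1691, 1906 and 1904 in NaCl/PBS to 964, 1622 and 883 in FeSO4/PBS (LFC -0.66 ± 0.19, FDR = 0.01). FeSO4/PBS mouse 2 lay close to the NaCl/PBS mice, the other FeSO4/PBS mice well below them. Without FeSO4/PBS mouse 2 the LFC was -0.99 (FDR = 0.00012), and without mouse 3 it was -0.50 (FDR = 0.051). Igf1 rose from 9778, 12053 and 9949 to 12560, 16793 and 13004, and the highest NaCl/PBS mouse lay just below the lowest FeSO4/PBS mouse. The LFC was 0.41 ± 0.15 (FDR = 0.03), and the call was lost without NaCl/PBS mouse 1 (FDR = 0.10) or mouse 3 (FDR = 0.10) and without FeSO4/PBS mouse 2 (LFC 0.27, FDR = 0.15). Ghr, the receptor upstream of both, had counts of 8409, 7131 and 7948 in NaCl/PBS and of 5687, 7437 and 6740 in FeSO4/PBS. These overlapped, and the LFC of -0.24 had a 95% interval of -0.55 to 0.06 (FDR = 0.16).

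Among the signaling genes, the insulin receptor and the docking proteins did not move together. Insr fell from 3096, 3177 and 3168 to 1981, 2334 and 2449 (LFC -0.48 ± 0.11, FDR = 0.0017), with all FeSO4/PBS mice below all NaCl/PBS mice. Irs1 fell from 299, 195 and 420 to 63.5, 144 and 86.7 (LFC -1.63 ± 0.32, FDR = 0.00065). The highest and lowest mouse differed 2.15-fold in NaCl/PBS and 2.27-fold in FeSO4/PBS, yet the groups did not overlap. Irs2 rose from 497, 745 and 402 to 702, 1964 and 1256 (LFC 1.26 ± 0.39, FDR = 0.014). Here the groups overlapped, since FeSO4/PBS mouse 1 lay below NaCl/PBS mouse 2, and the call was lost without NaCl/PBS mouse 3 (LFC 1.07, FDR = 0.06) and without FeSO4/PBS mouse 2 (LFC 0.84, FDR = 0.083). Pik3r1 rose from 1311, 1683 and 1458 to 5660, 3127 and 2757 (LFC 1.38 ± 0.26, FDR = 0.00051). All FeSO4/PBS mice were above all NaCl/PBS mice, mouse 1 by the widest margin, and without it the LFC was 0.99 (FDR = 0.0014).

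The second comparison asked how the axis responded to DEX alone, in NaCl/DEX against the same NaCl/PBS mice. Of the 10 genes 1 was upregulated (Igfbp1), beside 6.5% of all tested genes, and 2 were downregulated (Irs1 and Irs2), beside 7.15%. All 3 lay beyond an LFC of 1, a size that 2.97% of tested genes passed upward and 3.41% downward. The median LFC of the 10 was -0.04 and that of all tested genes -0.02. With library size alone that median was -0.18 and the share of calls that were higher fell from 47.6% to 25.8%, and Insr was then called lower (LFC -0.40, FDR = 0.021).

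Igfbp1 reached 8278, 8875 and 8230 in the NaCl/DEX mice. These values lay within a narrow band, with a coefficient of variation of 4.25% against 78.7% in NaCl/PBS, and all were above the highest NaCl/PBS mouse. The LFC was 2.37 ± 0.41 (FDR = 0.0015), or 3.22 (FDR = 1.5e-05) without NaCl/PBS mouse 2. Irs1 had counts of 96.6, 176 and 124 (LFC -1.20 ± 0.31, FDR = 0.018), all below the lowest NaCl/PBS mouse. Irs2 had counts of 143, 279 and 117 (LFC -1.60 ± 0.41, FDR = 0.018), again all below the NaCl/PBS mice. Both Irs calls depended on single mice. That of Irs1 was lost when any of 4 mice was left out (NaCl/PBS mouse 1 or 3, NaCl/DEX mouse 1 or 3, FDR of 0.051 to 0.11). That of Irs2 was lost without NaCl/PBS mouse 2 (FDR = 0.07) and without NaCl/DEX mouse 1 (FDR = 0.074) or mouse 3 (FDR = 0.084).

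The remaining 7 genes were not called after DEX alone. Pik3r1 had counts of 2504, 2105 and 2107, all above the NaCl/PBS mice, with an LFC of 0.59 (95% interval 0.04 to 1.14, FDR = 0.15). It was called without FeSO4/PBS mouse 1 (FDR = 0.04) and in a model of the NaCl/PBS and NaCl/DEX libraries alone (FDR = 0.0045), where the spread among FeSO4 mice did not enter. Insr had counts of 2799, 2545 and 2617, all below the NaCl/PBS mice (LFC -0.25, 95% interval -0.47 to -0.02, FDR = 0.15). The LFCs of Igf1, Igfbp2, Igfbp4, Igfals and Ghr lay between -0.11 and 0.28, and their NaCl/DEX mice overlapped the NaCl/PBS mice.

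**Figure D2:**
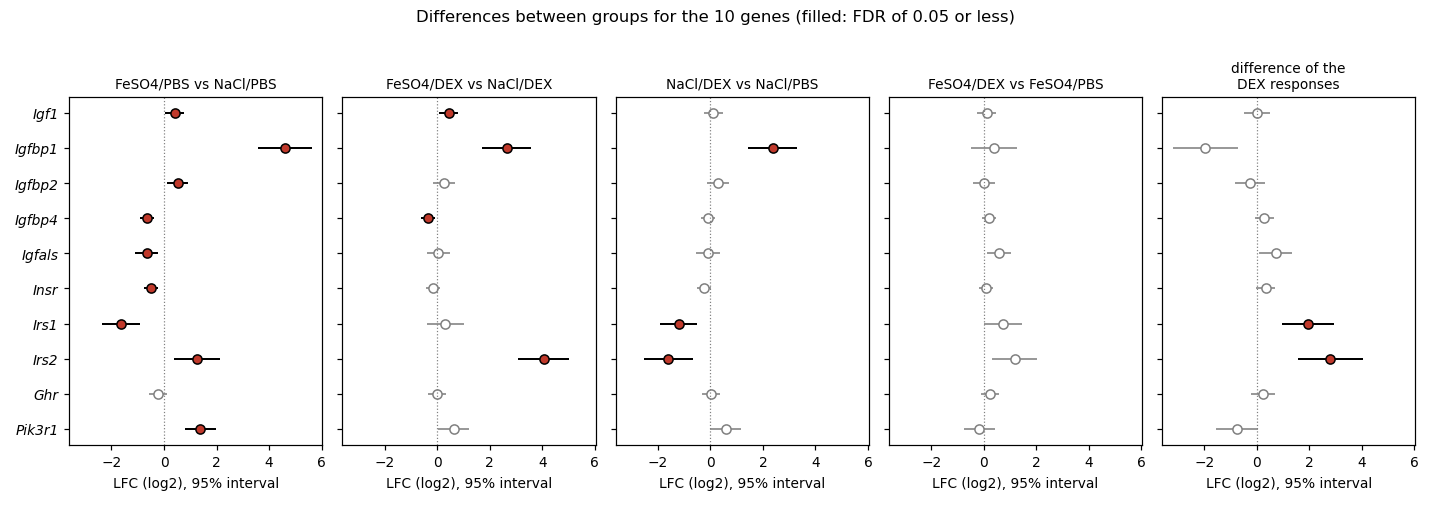
LFC (log2) with its 95% interval for the 10 genes in 4 comparisons and for the difference between the DEX responses, filled where the FDR was 0.05 or less. In FeSO4/PBS against NaCl/PBS 9 genes were called and Igfbp1 reached 4.61, while in FeSO4/DEX against FeSO4/PBS no gene was called.

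The third comparison asked what DEX did in FeSO4 mice. In FeSO4/DEX against FeSO4/PBS none of the 10 genes was called by edgeR, nor by DESeq2. With no filter on low counts edgeR called Irs2 (LFC 1.18, FDR = 2.8e-13) and Igfals (LFC 0.59, FDR = 0.008) higher. Their LFCs with the filter were nearly the same (1.19 and 0.60), so the lower FDRs do not stand for larger differences. Over all tested genes 0% were called higher and 0% lower by edgeR, 900 had an unadjusted p under 0.05, and DESeq2 called 9. Of the 10 genes 3 had an unadjusted p under 0.05, namely Irs2, Igfals and Irs1. Irs2 had counts of 2518, 4374 and 2072 in FeSO4/DEX, all above the FeSO4/PBS mice (LFC 1.19, 95% interval 0.37 to 2.01, FDR = 0.71). Igfals had counts of 1705, 1660 and 1897, also all above the FeSO4/PBS mice and within the range of the NaCl groups (LFC 0.60, 95% interval 0.18 to 1.02, FDR = 0.71). Irs1, with counts of 140, 175 and 177, overlapped the FeSO4/PBS mice (LFC 0.73, 95% interval 0.04 to 1.43, FDR = 0.76). Igfbp1 had counts of 51680, 63304 and 44136 in FeSO4/DEX, which overlapped those of FeSO4/PBS (LFC 0.40, 95% interval -0.44 to 1.24, FDR = 0.87).

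Whether the DEX response differed between NaCl and FeSO4 mice was tested with the interaction term, which uses all 4 groups. Of the 10 genes 2 were called, Irs2 and Irs1, both with a higher DEX response in FeSO4 mice, beside 2.99% of tested genes in that direction. No member was called in the other direction, beside 3.2% of tested genes. Beyond an LFC of 1 these shares were 2.14% and 2%, and with library size alone 63.7% of the calls, against 48.3%, were positive. For Irs2 the DEX responses differed by 2.79 ± 0.56 on the log2 scale (FDR = 0.0091), from an LFC of -1.60 in NaCl mice to 1.19 in FeSO4 mice. For Irs1 they differed by 1.94 ± 0.45 (FDR = 0.019), from -1.20 to 0.73, and this call was lost in 4 of the 12 settings that left out 1 mouse, namely NaCl/PBS mouse 3, NaCl/DEX mouse 1, NaCl/DEX mouse 3 and FeSO4/DEX mouse 3 (FDR of 0.051 to 0.059). For Igfbp1 the difference was -1.96 ± 0.56 with FDR = 0.055. Without NaCl/PBS mouse 2, the mouse with high Igfbp1 and Fkbp5 at baseline, it was -2.82 (FDR = 0.00048), and DESeq2 gave -2.01 (FDR = 0.049). With the mouse number as a block it was -2.15 (FDR = 0.015), and it was called as well without FeSO4/PBS mouse 1 (-2.16, FDR = 0.038). With no filter on low counts it was -1.99 (FDR = 3.1e-19), again a lower FDR for a difference of nearly the same size. Without DEX, Igfbp1 in FeSO4/PBS mice stood at a mean of 40109 ± 9407, against 8461 ± 359 in NaCl/DEX mice (SD, n = 3).

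The FeSO4 effect in mice that had all received DEX, FeSO4/DEX against NaCl/DEX, used 6 mice that the first comparison did not use. Of the 10 genes 3 were upregulated (Irs2, Igfbp1 and Igf1), beside 22.4% of tested genes, and 1 was downregulated (Igfbp4), beside 20.9%. Beyond an LFC of 1 these were 2 (Irs2 and Igfbp1) and 0, beside 10.6% and 9.83% of tested genes. The median LFC was 0.28 for the 10 and 0.01 for all tested genes, and -0.18 for all tested genes with library size alone, where 34.2% of calls were higher against 51.7%. Irs2 showed the largest difference, with an LFC of 4.05 ± 0.44 (FDR = 6.6e-06), a 16.6-fold difference, and the lowest FeSO4/DEX mouse stood at 2072 against 279 in the highest NaCl/DEX mouse. Igfbp1 differed by 2.65 ± 0.42 (FDR = 0.00017) and did not overlap. Igf1, at 14167, 16449 and 15519 against 9555, 13113 and 11689, differed by 0.43 ± 0.15 (FDR = 0.033). Its groups did not overlap, but the call was lost with library size alone (LFC 0.22, FDR = 0.24) and in 5 of the 12 settings that left out 1 mouse, which are NaCl/PBS mouse 3, NaCl/DEX mouse 1 or 3 and FeSO4/DEX mouse 2 or 3. Igfbp4, at 22824, 19848 and 21799 against 28479, 27118 and 26576, differed by -0.35 ± 0.10 (FDR = 0.014).

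Genes that were called after FeSO4 in PBS mice but not in DEX mice were Igfbp2 (LFC 0.25, FDR = 0.28), Igfals (0.04, FDR = 0.88), Insr (-0.15, FDR = 0.26), Irs1 (0.31, FDR = 0.46) and Pik3r1 (0.62, FDR = 0.064). The interaction term is also the test of this difference, and of these 5 genes it was called for Irs1 alone (FDR = 0.59 for Igfbp2, 0.16 for Igfals, 0.24 for Insr and 0.26 for Pik3r1). The term was called for Igfals without FeSO4/PBS mouse 2 (1.03, FDR = 0.0077) and with no filter on low counts (0.69, FDR = 0.014), and for Pik3r1 with no filter (-0.77, FDR = 0.0039). With the filter these differences had nearly the same size (0.71 and -0.76). Pik3r1 had counts of 4634, 2395 and 3291 in FeSO4/DEX, where mouse 2 lay below the highest NaCl/DEX mouse. Its FeSO4 effect in DEX mice was called with the mouse number as a block (LFC 0.59, FDR = 0.047), in a model of these 6 libraries alone (FDR = 0.031), with no filter on low counts (FDR = 0.00017), without FeSO4/PBS mouse 1 (FDR = 0.021) and without FeSO4/DEX mouse 2 (LFC 0.79, FDR = 0.027). With library size alone Insr was called lower in this comparison as well (LFC -0.35, FDR = 0.016).

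Since Igfbp1 and Igfbp4 moved in opposite directions, the makeup of the binding protein transcripts was computed per mouse, as the share of each gene in the summed reads per kb of Igfbp1 to Igfbp7. Igfbp1 made up 3.81%, 14.5% and 6.17% of the sum in NaCl/PBS and 31.7%, 32.7% and 31.6% in NaCl/DEX. It made up 67.0%, 77.6% and 68.5% after FeSO4 alone and 74.4%, 78.6% and 72.9% after both. The 2 FeSO4 groups overlapped each other and were separate from both NaCl groups. Igfbp4 held 54.4% to 65.0% of the sum in NaCl/PBS and 38.4% to 41.9% in NaCl/DEX, against 11.2% to 15.8% in FeSO4/PBS and 9.47% to 13.8% in FeSO4/DEX. The sum itself was 11213 ± 1535 (SD, n = 3) reads per kb in NaCl/PBS and 15550 ± 365 after DEX alone, and it rose to 32977 ± 5375 after FeSO4 alone and 41277 ± 5900 after both. Igfbp2 held 29.5% ± 2.47, 25.9% ± 1.56, 14.6% ± 4.07 and 11.6% ± 0.513 in the same order of groups. A smaller share of a larger sum need not be a lower level. Mean reads per kb of Igfbp2 were 3318, 4029, 4744 and 4776 in that order. Igfbp4 was not called after DEX alone (LFC -0.09, FDR = 0.65), although its share was smaller. Igfbp3, Igfbp5, Igfbp6 and Igfbp7 each made up at most 2.35% in any mouse. With 3 mice a group, the smallest two-sided p of an exact permutation test is 0.1, so these shares were not tested.

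The ratio of Irs2 to Irs1 in reads per kb was 2.11, 4.84 and 1.22 in NaCl/PBS and 1.88, 2.02 and 1.20 in NaCl/DEX. It was 14.0, 17.3 and 18.4 in FeSO4/PBS and 22.8, 31.7 and 14.8 in FeSO4/DEX. Irs2 exceeded Irs1 per kb in all 12 mice, the NaCl groups overlapped each other, the FeSO4 groups overlapped each other, and every FeSO4 mouse lay above every NaCl mouse.

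**Figure D3:**
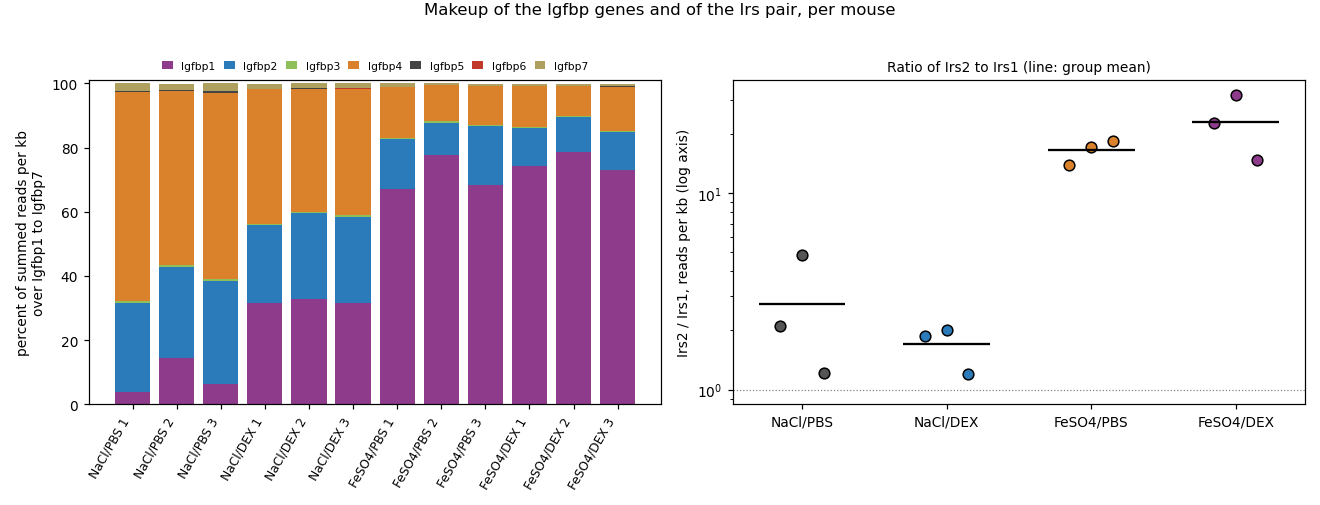
Left, stacked percent of the summed reads per kb of Igfbp1 to Igfbp7 in each mouse; right, the ratio of Irs2 to Irs1 in reads per kb (log axis) in each mouse, with the group mean as a line. The Igfbp1 share was 3.81% to 14.5% in NaCl/PBS and 67.0% to 77.6% in FeSO4/PBS, and the ratio was at most 4.84 in NaCl mice and at least 14.0 in FeSO4 mice.

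The genes whose pattern over the 12 mice was most like that of a member were named for Igfbp1 and Igf1, by the root mean square difference of log2 CPM after each gene was centred on its own mean, among 8959 genes. For Igfbp1 these were Jun (0.42), Tiparp (0.47) and Map3k6 (0.48), against a median of 2.15 over all genes compared. A gene without any variation would have been at 2.17 from Igfbp1, close to that median. Jun encodes a subunit of the transcription factor AP-1, Tiparp an ADP-ribosyltransferase induced by the aryl hydrocarbon receptor and Map3k6 a stress-activated kinase. Jun had a mean count of 234 in NaCl/PBS, 798 after DEX alone, 3768 after FeSO4 alone and 5699 after both, the same order of groups as Igfbp1. Because Jun was chosen for its likeness over these same mice, this order is not a separate result. For Igf1 these were Mrpl17 (0.11), Mettl26 (0.11) and Btd (0.12), against a median of 0.39, and a gene that did not vary at all would have been at 0.27 from Igf1. Mrpl17 encodes a mitochondrial ribosomal protein and Btd the enzyme biotinidase.

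The other genes of the IGF system were described as a list of 12, of which 8 could be tested and Igf2, Pappa, Pappa2 and Stc2 had too few reads. After FeSO4, in PBS mice, 3 were higher (Igfbp3, Igfbp7 and Stc1) and 1 was lower (Igfbp5), with a list median LFC of 0.18 against -0.02 for all tested genes. Here and in the lists that follow, the shares of all tested genes are those given above, 27.2% higher and 27.3% lower after FeSO4 and 6.5% higher and 7.15% lower after DEX alone. These shares move with the setting. With library size alone, 2285 of 13857 tested genes were higher and 5829 lower after FeSO4, and 618 and 1776 after DEX alone. DESeq2 called 1158 of 25013 genes higher and 1065 lower after DEX alone. Igfbp5, which stellate and other nonparenchymal cells are known to express, fell from 198, 253 and 256 to 26.2, 40.7 and 42.1 (LFC -2.70 ± 0.30, FDR = 6e-06). Igfbp3, the main carrier of circulating IGF-1, rose from 202, 205 and 249 to 472, 483 and 436 (LFC 1.09 ± 0.13, FDR = 1.1e-05). Igfbp7 had an LFC of 0.27 ± 0.10 (FDR = 0.04), which with library size alone was -0.05 (FDR = 0.71). Stc1, which encodes stanniocalcin 1, an inhibitor of PAPP-A, had 0 to 3 counts in the NaCl/PBS libraries and 34 to 79 in FeSO4/PBS, at least 21.2-fold higher against a floor of 3 counts per library. With Stc1 at that bound the list median was still 0.18. Markers of stellate cells and fibroblasts had summed counts of 4387 to 4530 in NaCl/PBS and of 4376 to 6212 in FeSO4/PBS, with 2 of 8 called higher and 2 lower. After DEX alone 0 of the 8 were called by edgeR, 3 had an unadjusted p under 0.05, and DESeq2 called 2 higher and 1 lower.

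Of 12 growth hormone signaling genes, all tested, 5 were higher and 0 lower after FeSO4, beside 27.2% and 27.3% of all tested genes, with a list median LFC of 0.44. With library size alone 1 was higher, Socs3, and 2 were lower. Socs3, a feedback inhibitor that cytokines also induce, rose from 193, 942 and 239 to 4442, 4277 and 3732 (LFC 3.19 ± 0.48, FDR = 7.8e-05). The adaptor gene Sh2b1 (LFC 0.55 ± 0.16, FDR = 0.01) and the phosphatase gene Ptpn11 (LFC 0.48 ± 0.10, FDR = 0.0013) rose less, and with library size alone neither was called (FDR = 0.21 and 0.22). Socs2 had counts of 322, 731 and 419 in NaCl/PBS and of 475, 1348 and 990 in FeSO4/PBS (LFC 0.94 ± 0.36, FDR = 0.042), and Bcl6 had counts of 455, 165 and 125 against 345, 647 and 487 (LFC 0.98 ± 0.37, FDR = 0.036). The groups overlapped for both, and the calls were lost with library size alone (FDR = 0.16 and 0.14), in a model of these 6 libraries alone (FDR = 0.067 and 0.086) and in 6 and 4 of the 12 settings that left out 1 mouse. DESeq2 did not call Socs2 (FDR = 0.071). The STAT5 genes were not called after FeSO4 (Stat5a LFC -0.27, FDR = 0.25, Stat5b LFC 0.09, FDR = 0.66), nor was Cish, a classic STAT5 target (LFC -0.40, FDR = 0.56). After DEX alone 2 of the 12 were lower and 0 higher, with a median of -0.15. Socs3 fell to 39.7, 73.3 and 49.3 (LFC -3.06 ± 0.53, FDR = 0.0014) and Stat5a fell from 224, 232 and 173 to 76.2, 120 and 130 (LFC -0.94 ± 0.20, FDR = 0.0051). Without NaCl/PBS mouse 2, which had the Socs3 count of 942, the LFC of Socs3 was -1.97 after DEX alone and 4.27 after FeSO4.

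Of 18 genes of proximal insulin signaling, 17 were tested and Irs4 had too few reads. After FeSO4, 8 were higher and 7 lower, beside 27.2% and 27.3% of all tested genes, with a list median of 0.01, and with library size alone 5 were higher and 9 lower. The adaptor gene Grb10, whose product inhibits the insulin receptor, rose from 63.3, 69.2 and 71.1 to 282, 845 and 381 (LFC 2.89 ± 0.32, FDR = 5.1e-06). The phosphatase gene Ptpn2 rose from 222, 261 and 184 to 1208, 1617 and 1085 (LFC 2.55 ± 0.19, FDR = 2.1e-07), and the lipid phosphatase gene Inppl1 fell from 637, 626 and 661 to 166, 263 and 242 (LFC -1.52 ± 0.14, FDR = 1.5e-06). Shc1 and Pik3ca, called higher here, had an LFC just below 0 with library size alone (-0.02 and -0.01). After DEX alone 2 were higher and 2 lower, with a median of -0.08, and with library size alone 4 were lower. The catalytic subunit gene Pik3cd, typical of leukocytes, fell from 136, 181 and 136 to 38.6, 39.5 and 54.4 (LFC -1.77 ± 0.20, FDR = 5.4e-05). In the same comparison the summed counts of lymphocyte markers were 46.8 to 74.8 in NaCl/PBS and 27.2 to 46.2 in NaCl/DEX, with 0 of 4 tested called. Those of neutrophil markers were 115 to 299 and 86.6 to 125, with 1 of 6 called lower. Those of Kupffer cell markers were 6353 to 7335 and 5715 to 6892, with 0 of 6 called. The part of these cells in the fall of Pik3cd was not tested. The regulatory subunit gene Pik3r2 fell by 0.36 ± 0.11 on the log2 scale (FDR = 0.047), a call lost in 11 of the 12 settings that left out 1 mouse. The adaptor gene Grb2 rose from 780, 781 and 800 to 1169, 1052 and 1278 (LFC 0.57 ± 0.11, FDR = 0.0031).

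Of 27 AKT, FOXO and mTORC1 genes, 26 were tested and Foxo6 had too few reads. After FeSO4, 7 were higher and 9 lower (median LFC -0.13), beside 27.2% and 27.3% of all tested genes. With library size alone 4 were higher and 13 lower, and Gsk3a, Rheb and Mtor were no longer called higher. After DEX alone 3 were higher and 0 lower (median -0.06), beside 6.5% and 7.15% of all tested genes. DESeq2 called 5 higher, and edgeR 6 without FeSO4/PBS mouse 1, 5 without FeSO4/DEX mouse 3 and 6 in a model of the NaCl libraries alone. Calls over all tested genes moved as well. Against 901 of 13857 genes higher, DESeq2 called 1158 of 25013. The other settings, in the same order, gave 1284 of 14264, 899 of 14312 and 1338 of 13158. Ddit4, also called REDD1, an inhibitor of mTORC1 and a known glucocorticoid target, rose from 99.3, 104 and 95.6 to 875, 1138 and 708 in FeSO4/PBS (LFC 3.19 ± 0.23, FDR = 1.5e-07) and to 3251, 2921 and 2911 in NaCl/DEX (LFC 4.93 ± 0.25, FDR = 3.7e-08). Foxo1, the main hepatic FOXO gene, rose from 599, 703 and 642 to 1848, 2473 and 2605 in FeSO4/PBS (LFC 1.83 ± 0.14, FDR = 1.6e-07) and to 1512, 1509 and 1479 in NaCl/DEX (LFC 1.21 ± 0.13, FDR = 4.2e-05). All treated mice were above all NaCl/PBS mice for both genes. Foxo3 rose after DEX alone (LFC 1.06 ± 0.17, FDR = 0.00091) and fell after FeSO4 (LFC -0.63 ± 0.18, FDR = 0.0075). Eif4ebp1, which encodes the translational repressor 4E-BP1, rose after FeSO4 from 550, 623 and 557 to 2615, 2049 and 1877 (LFC 1.92 ± 0.14, FDR = 1.5e-07).

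The 8 insulin-responsive liver genes, all tested, did not follow 1 direction. After FeSO4, 3 were higher and 1 lower (median LFC 0.60), and after DEX alone 2 were higher and 1 lower (median 0.68). With library size alone 2 were higher and 2 lower after FeSO4. After DEX alone 5 were higher in a model of the NaCl libraries alone, and 1 without NaCl/PBS mouse 2, NaCl/PBS mouse 3 or NaCl/DEX mouse 3. Over all tested genes, in the same order of settings, 1338 of 13158, 784 of 14277, 614 of 14150 and 677 of 14315 were higher. Pck1, the insulin-repressed gene of the gluconeogenic enzyme PEPCK, fell from 43527, 48206 and 47515 to 3377, 14811 and 6516 (LFC -2.49 ± 0.41, FDR = 0.00016). Pdk4, the insulin-repressed gene of pyruvate dehydrogenase kinase 4, rose from 95.7, 149 and 81.3 to 515, 14233 and 14043 (LFC 6.47 ± 0.92, FDR = 5.2e-05). FeSO4/PBS mouse 1 was far below the other FeSO4/PBS mice for Pdk4, and without it the LFC was 7.04 (FDR = 2e-08). Pnpla3 rose after FeSO4 (LFC 2.12 ± 0.47, FDR = 0.0018). After DEX alone Srebf1, the gene of the lipogenic factor SREBP-1, fell from 5520, 3732 and 5196 to 2574, 1863 and 2054 (LFC -1.15 ± 0.19, FDR = 0.00078). Among the insulin-repressed genes, Igfbp1, Irs2 and Pdk4 were higher and Pck1 lower in the same FeSO4/PBS livers, while G6pc1, the gene of glucose-6-phosphatase (LFC 0.78, FDR = 0.14), and Ppargc1a, which encodes the coactivator PGC-1alpha (LFC 0.63, FDR = 0.26), were not called.

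**Figure D4:**
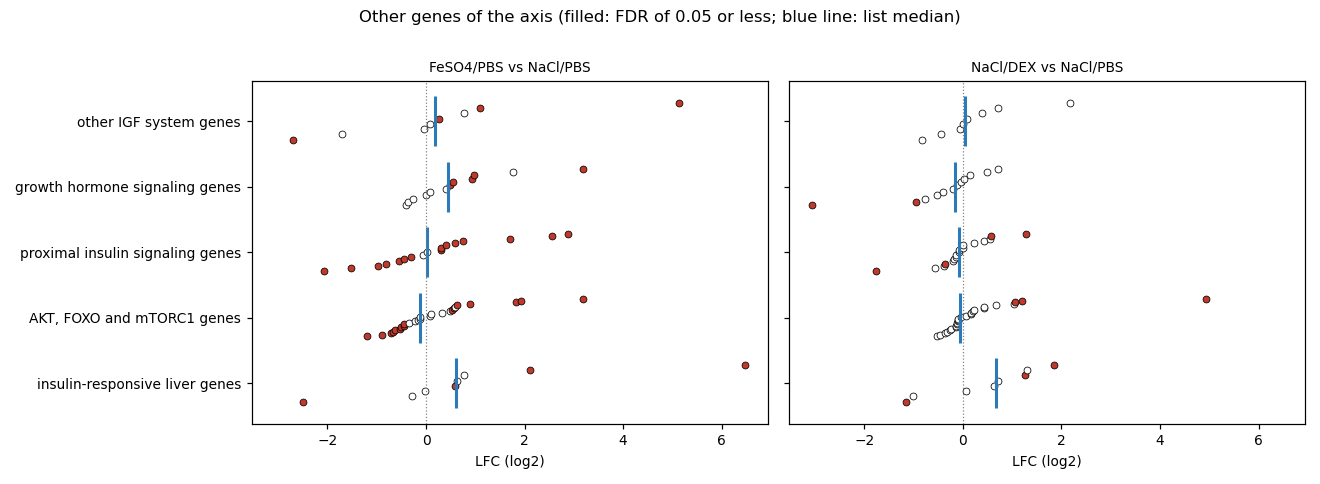
LFC (log2) of the other genes of the axis by list, after FeSO4 in PBS mice (left) and after DEX in NaCl mice (right), with the list median as a blue line and genes filled at an FDR of 0.05 or less. Medians lay between -0.13 and 0.60 after FeSO4, where Pdk4 reached 6.47, and between -0.15 and 0.68 after DEX, where Ddit4 reached 4.93; the points of Stc1 are fitted values against a group of 3 counts or fewer per library.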

How the data were processed

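The deposited values are whole-number read counts per gene, without normalization. Per the labels and the study's methods, the authors made stranded mRNA libraries from total liver RNA, sequenced single-end reads, checked them with FastQC, and mapped and counted them with STAR 2.7.10b on mm39. Which strand column of the counts was kept is not given in the sources used here. Symbols, exon lengths and positions came from GENCODE vM39 on GRCm39 (54749 of 55414 identifiers), a later release than the authors used. Antisense genes share exon bases with Igfals, Insr, Irs1 and Irs2 in that release, and the 1 of them in the table, 9530052E02Rik, had 0 to 8 counts.

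From these counts, 1 edgeR 4.0.16 quasi-likelihood model over all 12 libraries (R 4.3.3, limma 3.58.1) gave each group its own mean, with TMM factors and the 13857 genes that passed edgeR's filter on low counts. FDR is the Benjamini-Hochberg adjusted p over those genes, with calls at 0.05. LFCs used a prior count of 0.125. Their 95% intervals are for the difference between group means, given the spread between mice within groups, and do not cover that spread itself. The biological coefficient of variation was 0.169. Normalised read counts are TMM-scaled to the mean effective library size, and levels per kb divide them by the union of exons. Comparisons that share a group, such as those against NaCl/PBS, are not independent. Labels number the replicates of each group, and these numbers are used here for the mice. The labels do not say that mice were housed or handled separately, so p-values weigh differences only against the spread between these 12 livers. Each library was counted as 1 mouse, since pairs within a group lay far beyond sampling noise (chi-square per gene from 16.8 up to 81.4).

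Alternatives were DESeq2 1.42.0, its size factors in edgeR, library size alone, other filters on low counts, the replicate number as a block, only the libraries compared, an LFC beyond 1 and each mouse left out. On simulated data for NaCl/DEX against NaCl/PBS, 178 of 194 changed genes were recovered among 13579 genes with 9 other calls. All changed genes were given the same size of change, larger than the LFCs of Irs1 (-1.20) and Irs2 (-1.60) in this comparison. Recovery of differences as small as these was therefore not measured. Named genes were the 10 members, up to 3 called genes per list and comparison with the largest LFC, separate groups and a mean count of at least 100 in the higher group, the 3 genes most like Igfbp1 and Igf1, and Hmox1, Fkbp5, Tsc22d3 and Per1. A result for 1 gene that this rule names is not reported here. The naming of Stc1, Socs2, Bcl6, Stat5b, Cish, Shc1, Pik3ca, Gsk3a, Rheb, Mtor, G6pc1 and Ppargc1a came after their values were known. The members, gene lists and comparisons were chosen with earlier results of these data known. Tables and figures used Python 3.11.15, numpy 2.4.6, pandas 2.3.3 and matplotlib 3.10.9.

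Markers of other cell types in these libraries were also summed. Endothelial markers summed to 4810 to 5631 in NaCl/PBS and 5142 to 6461 in FeSO4/PBS, cholangiocyte markers to 533 to 683 and 1068 to 1376, lymphocyte markers to 46.8 to 74.8 and 49.4 to 68.9, and mesothelial markers to 33.1 to 87.2 and 17.1 to 30.6. Hepatocyte markers summed to 1892230 to 2257541 and 2374088 to 2688261. Of 6 pancreatic acinar markers, Cpa1, Prss2, Pnlip and Ctrb1 were at 0 in all libraries.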

Additional observations from a re-analysis of the deposited data

Results flagged for a closer look

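The DEX response, tested as FeSO4/DEX minus FeSO4/PBS against NaCl/DEX minus NaCl/PBS, differed between FeSO4 and NaCl mice for 2 members. The difference was 2.79 on the log2 scale for Irs2 and 1.94 for Irs1.

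The same test was passed by 9 genes of the lists described above, which held 8, 12, 17, 26 and 8 tested genes, beside 2.99% of all tested genes with a positive and 3.2% with a negative difference. The difference was positive for Socs3 (2.82, FDR = 0.025), Srebf1 (1.70, FDR = 0.0017), Pik3cd (1.48, FDR = 0.0074) and Stat5a (1.38, FDR = 0.0086), which, like Irs1 and Irs2, were lower after DEX in NaCl mice. Without NaCl/PBS mouse 2 it was 1.72 for Socs3. It was negative for Ddit4 (-3.55, FDR = 1.9e-05), Foxo1 (-1.02, FDR = 0.0052), Foxo3 (-1.0, FDR = 0.028), Eif4ebp1 (-0.70, FDR = 0.048) and Grb2 (-0.66, FDR = 0.022). Of these, Ddit4, Foxo1, Foxo3 and Grb2 were called higher after DEX in NaCl mice, and Eif4ebp1 was not (LFC 0.43, FDR = 0.054). The DEX response in NaCl mice enters the test with its sign reversed. These opposite directions are therefore partly built into the test and are not a separate result. None of the 9 was called in FeSO4/DEX against FeSO4/PBS by edgeR, where 900 of 13857 tested genes had an unadjusted p under 0.05. For Ddit4 all FeSO4/DEX mice still lay above all FeSO4/PBS mice (1612 to 3196 against 708 to 1138). The same held for Srebf1 (5131 to 6761 against 3306 to 4848) and Stat5a (216 to 250 against 151 to 196). For Pik3cd all lay below (59.9 to 69.3 against 74.0 to 80.6), and for Socs3, Foxo1, Foxo3, Eif4ebp1 and Grb2 the groups overlapped. The calls of Socs3, Grb2, Foxo3 and Eif4ebp1 were lost in at least 3 of the 12 settings that left out 1 mouse. The DEX responses share the test's groups, so each value here rests on all 12 mice.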

How the results depend on the processing

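Of 159 recomputed counts of members, 137 stayed within 1.5 times the reported count. With an LFC beyond 1 required, 3 members were higher and 1 lower in FeSO4/PBS against NaCl/PBS, and 0 were lower in FeSO4/DEX against NaCl/DEX. With library size alone these were 3 higher after FeSO4 in PBS mice and 2 lower in FeSO4/DEX against NaCl/DEX. With no filter on low counts, 2 members were higher after DEX alone, 2 (Irs2 and Igfals) were called in FeSO4/DEX against FeSO4/PBS and 5 for the difference between the DEX responses, and the cause was not tested. DESeq2, fitted to as many genes (25013), called 0 members in FeSO4/DEX against FeSO4/PBS and 3 for that difference. Dropping the filter also removed calls of list genes, such as that of Pik3ca after FeSO4 (FDR = 0.1). With only the compared libraries, 2 were higher after DEX alone, where 1338 of 13158 tested genes were higher against 901 of 13857. Leaving out 1 mouse at a time gave 3 to 5 members higher after FeSO4 in PBS mice, 1 to 2 higher and 0 to 2 lower after DEX alone, and 1 to 3 for the difference between the DEX responses. Across single LFCs of members, 891 kept their side of the threshold and their direction or were never called, 28 lost a call and 21 gained one, and none reversed. Of the list genes, Igfbp7 (-0.05), Shc1 (-0.02) and Pik3ca (-0.01) turned from higher to lower after FeSO4 with library size alone. With the longest transcript as length, the Igfbp1 share was 28% in NaCl/DEX and 71.3% in FeSO4/DEX. Over all tested genes, library size alone called 2285 higher and 5829 lower after FeSO4 in PBS mice, against 3770 and 3783, and 618 and 1776 after DEX alone, against 901 and 991. For the difference between the DEX responses, against 414 positive and 443 negative calls, no filter gave 683 and 776 and DESeq2 523 and 735. With no filter, 99 genes were higher and 71 lower in FeSO4/DEX against FeSO4/PBS, against 0. Leaving out 1 mouse gave 606 to 1284 genes higher and 578 to 1259 lower after DEX alone, with the fewest without NaCl/PBS mouse 1 and mouse 3, and 229 to 408 positive and 308 to 628 negative calls for the difference between the DEX responses.

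For mice with the same number, the correlation of their deviations from the group means lay between -0.161 and 0.22 over 18 pairs, 3 of them above 0.1. Mice with different numbers in different groups lay between -0.325 and 0.278. Whether mice of the same number shared a batch was not tested further. With the replicate block, the member counts were 5 higher and 4 lower after FeSO4 in PBS mice, 1 higher and 2 lower after DEX alone, 0 in FeSO4/DEX against FeSO4/PBS, 4 higher and 1 lower in FeSO4/DEX against NaCl/DEX, and 3 for the difference between the DEX responses. Igfbp1 was then called for that difference (-2.15, FDR = 0.015) and Pik3r1 for FeSO4/DEX against NaCl/DEX (0.59, FDR = 0.047). Irs1 had the fewest reads of the 10 genes, 63 in its lowest library.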

Other observations

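Mouse 2 had the highest normalised read count of its group for Igfbp1, Igf1 and Irs2 in all 4 groups, for example 745, 279, 1964 and 4374 for Irs2. Over 13857 tested genes, mouse 2 was highest in all 4 groups for 151 genes (1.09%), mouse 1 for 193 (1.39%) and mouse 3 for 90 (0.649%). The labels do not say what mice of the same number have in common, and the 3 genes were noticed after their values had been seen.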
